A study of Homo sapiens with 18 samples.

Results

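HCT-116 libraries in which ACTB RNA was depleted were compared with HCT-116 libraries in which it was intact. HCT-116 is an established human colorectal carcinoma line. The comparison took all 9 libraries of the deposited ACTB table against all 9 libraries of the deposited SETD3 table, 18 of the 18 libraries of the study, with the same gene rows in both tables. The study engineered actin and SETD3, the enzyme that methylates a histidine of actin, and sequenced poly(A)-selected RNA in 6 groups of 3 libraries. Its series title places the question in actin methylation, SMARCA4 occupancy, translation and adhesion. The ACTB-depleted side held Actin KO cells stably carrying an empty construct, Actin KO cells labelled ACTB-WT that stably express wild-type actin, and Actin KO cells labelled ACTB-mut that stably express the H73A form. The ACTB-intact side held a SETD3 control, SETD3 CT, and the SETD3 knockout lines KO1 and KO2, so 6 of its 9 libraries carried a SETD3 knockout and all 9 ACTB-depleted libraries carried an engineered ACTB locus.

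Table, clone and any batch formed the same split, so the loss of ACTB RNA, the history of the engineered clone and the handling of each table cannot be told apart in any difference reported here. The labels gave neither the number of clones behind a group nor the promoter of the actin constructs, and separate cultures for the 3 replicates are not stated either. The p-values therefore measure the spread between these samples, which may be technical. The source and cell line labels of SETD3 KO2 replicate 3 read HCT-117 in place of HCT-116, and this library was kept in its group. In bulk RNA, fewer cells with a transcript and less of that transcript in each cell cannot be told apart.

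Beta-actin, encoded by ACTB, and gamma-actin, encoded by ACTG1, are the cytoplasmic actins of non-muscle cells and assemble together into the cortex, stress fibres and junctional belts. Unpolymerised actin holds the coactivator MRTF in the cytoplasm, and MRTF released from actin switches on genes with serum response factor (SRF), actin genes among them, through CArG boxes in their promoters. Actin is also a subunit of BAF-type chromatin remodellers, whose ATPase is SMARCA4 in many epithelial cells, and SETD3 methylates histidine 73 of actin.

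Promoters of genes on which the results turn are shown first, each as the 250 bases before the annotated start, 5′ to 3′ on the gene's own strand, from RefSeq on GRCh38.p14. Capitals mark a match to a motif searched on both strands. They were chosen because ACTG1, BST2, AREG, ASNS and CHAC1 stood among the genes that differed and because each window holds a match to a searched motif. The motifs of ACTG1, BST2, ASNS and CHAC1 go with a gene list used here, and that of AREG does not. ACTG1 lies at chr17:81512800-81513049, minus strand, and its capitals are a CArG box, the site of SRF, 94 to 85 bases before the start.
ACTG1: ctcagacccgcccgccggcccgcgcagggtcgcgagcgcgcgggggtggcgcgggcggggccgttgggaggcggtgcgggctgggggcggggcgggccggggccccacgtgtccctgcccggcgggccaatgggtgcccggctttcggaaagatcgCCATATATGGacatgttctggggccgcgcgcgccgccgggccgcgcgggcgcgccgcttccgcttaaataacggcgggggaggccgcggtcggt
AREG lies at chr4:74444886-74445135, plus strand, and its capitals are TGACGTCA, the full cAMP response element, 65 to 58 bases before the start.
AREG: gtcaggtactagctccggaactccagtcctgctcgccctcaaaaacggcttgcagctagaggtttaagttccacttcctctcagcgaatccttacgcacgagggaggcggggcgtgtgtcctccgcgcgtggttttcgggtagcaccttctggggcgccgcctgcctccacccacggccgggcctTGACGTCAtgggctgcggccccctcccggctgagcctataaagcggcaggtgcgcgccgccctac
BST2 lies at chr19:17405631-17405880, minus strand, and its capitals are 2 overlapping matches to GAAANNGAAA, a core of the interferon-stimulated response element, 130 to 115 bases before the start.
BST2: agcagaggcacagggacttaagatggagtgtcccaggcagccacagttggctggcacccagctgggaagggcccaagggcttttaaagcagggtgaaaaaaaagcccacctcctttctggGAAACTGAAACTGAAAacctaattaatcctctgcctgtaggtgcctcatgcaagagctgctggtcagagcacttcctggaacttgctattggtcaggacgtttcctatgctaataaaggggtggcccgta
ASNS lies at chr7:97872409-97872658, minus strand, and its capitals are TGATGNAAN, the C/EBP-ATF composite element bound by ATF4, 68 to 60 bases before the start.
ASNS: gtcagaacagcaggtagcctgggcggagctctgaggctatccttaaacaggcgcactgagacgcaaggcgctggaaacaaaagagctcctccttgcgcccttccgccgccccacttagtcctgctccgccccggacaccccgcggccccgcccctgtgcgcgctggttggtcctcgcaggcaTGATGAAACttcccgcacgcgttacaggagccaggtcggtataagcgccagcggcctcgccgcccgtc
CHAC1 lies at chr15:40953221-40953470, plus strand, and its capitals are a match to TGATGNAAN on the opposite strand, 210 to 202 bases before the start.
CHAC1: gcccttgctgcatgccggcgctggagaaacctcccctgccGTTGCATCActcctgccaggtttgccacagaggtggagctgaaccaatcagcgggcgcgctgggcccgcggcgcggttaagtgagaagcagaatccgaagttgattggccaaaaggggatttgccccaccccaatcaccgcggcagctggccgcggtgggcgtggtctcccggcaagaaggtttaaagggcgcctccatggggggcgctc

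A match describes the letters and not a bound site. Among 27305 genes with a promoter window, 1.44% held a CArG box, 2.03% held TGACGTCA, 3.71% held GAAANNGAAA and 3.87% held TGATGNAAN. The CArG box and TGACGTCA read the same on both strands, so each such site was matched on both. A CArG box stood in 4 of the 6 actin genes with a window, ACTG1 among them, and in 8 of 32 SRF-MRTF targets.

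Total counts ran from 5144386 to 11271910 in ACTB-depleted libraries and from 3389586 to 11652967 in ACTB-intact libraries, with SETD3 KO2 replicate 1 the shallowest. SETD3 KO2 replicate 1 and SETD3 CT replicate 2 stood apart from all others on the first 2 principal components, which held 15.4% and 9.1% of the variance. Mitochondrial transcripts, read as a sign of RNA quality, took 0.636% to 1.615% of counts in ACTB-depleted and 0.815% to 1.695% in ACTB-intact libraries. The coefficient of variation between replicates beyond counting error was 19.5% above 100 CPM, 33.4% at 10 to 100 CPM and 89.1% at 1 to 10 CPM. Modest differences of rare transcripts were therefore not detectable with this spread. CPM is a gene's count over a library's total, in units of 1e-06 and scaled between libraries. Colorectal epithelium markers summed to 8256, 10595 and 13860 CPM as the lowest, median and highest of the ACTB-depleted libraries, against 8243, 9675 and 12851 CPM in ACTB-intact libraries, with KRT8, KRT18, KRT19 and EPCAM carrying the sum and CDX1 at 0 in all. Blood markers summed to at most 16.2 against 34.2 CPM with PTPRC and CD3E at 0, liver and kidney markers to at most 52.6 against 53.3 CPM with ALB at 0, and neural markers to at most 138 against 154 CPM, mostly TUBB3. Fibroblast markers summed to 7168, 8680 and 11533 against 7351, 9141 and 11378 CPM, nearly all of it COL6A3, while COL3A1, DCN, LUM, POSTN and FAP were at 0 in all libraries. Of their 10, 2, 6, 6 and 8 tested genes 0 were called in edgeR, beside 1.18% of all tested genes. At an unadjusted p below 0.05 stood 2, 0, 0, 1 and 1 of them, and DESeq2 called 1, a colorectal marker.

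ACTB RNA (ENSG00000075624, GRCh38 chr7:5527147-5563784, minus strand) was near the knockout level in all 9 libraries of its table. The 3 Actin KO libraries measured 17, 25.4 and 15.1 CPM, the 3 ACTB-WT libraries 31.6, 29.7 and 23.4 CPM and the 3 ACTB-mut libraries 47.5, 32 and 43.6 CPM. The lowest, median and highest ACTB-intact libraries held 658, 1244 and 1448 CPM. The means were 29.5 ± 10.9 against 1136 ± 253 CPM (SD, n = 9 each), a 40-fold lower level (log2 difference -5.32, SE 0.15, adjusted p = 1.54e-16 by edgeR's quasi-likelihood test). The low ACTB RNA was known when the split was drawn, so this value describes the split. Neither add-back group, for which the labels give an expressed actin, came within 13.9-fold of the lowest ACTB-intact library, and the groups are therefore named by their labels alone. Whether RNA of an actin construct was counted under ACTB cannot be read from the files. For the 6 add-back libraries, ACTB-depleted therefore means low counts of the ACTB gene row and not a measured lack of actin RNA from the construct.

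ACTG1 (ENSG00000184009, chr17:81509971-81523847, minus strand), the remaining cytoplasmic actin, was higher in every ACTB-depleted library than in every ACTB-intact one. Its lowest, median and highest levels were 5986, 7720 and 8739 CPM with ACTB depleted, against 1921, 3462 and 4135 CPM with ACTB intact. The means of 7387 ± 854 and 3325 ± 751 CPM (SD, n = 9 each) gave a log2 difference of 1.16 (SE 0.10, 2.23-fold, adjusted p = 3.59e-07). All 3 ACTB-depleted groups stood high, and the nearest pair of libraries across the split was 1.45-fold apart. ACTG1 kept its call in all 37 alternative settings.

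Per kilobase of transcript, using median lengths of 1812 nt for ACTB and 1960 nt for ACTG1, both cytoplasmic actins together summed to 3078, 3948 and 4476 CPM per kb (lowest, median, highest) in ACTB-depleted libraries and to 1343, 2471 and 2909 in ACTB-intact libraries. The lowest ACTB-depleted sum thus lay above the highest ACTB-intact sum. ACTB made up 0.234%, 0.389% and 0.798% of that sum in ACTB-depleted libraries, against 24.8%, 27.1% and 29% in ACTB-intact libraries. In the 6 add-back libraries the sum and the share may miss construct RNA, for the reason given above. These sums count RNA, and protein was not measured here.

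The other actin genes were near silent. ACTA1, ACTC1 and ACTBL2 had no count in any library, and ACTG2 reached at most 3.47 CPM. ACTA2, smooth muscle actin, averaged 3.26 ± 2.57 CPM in ACTB-depleted and 9.14 ± 4.29 CPM in ACTB-intact libraries (log2 -1.51, SE 0.51, adjusted p = 0.21), with overlap. POTEKP, a transcribed pseudogene of the POTE-actin family, measured 0, 0.137 and 0.386 CPM as lowest, median and highest, against 1.27, 5.14 and 8.1 CPM (log2 -4.83, SE 0.76, adjusted p = 0.00117). POTEKP shares near-identical sequence with ACTB, so how reads were divided between them is uncertain and its value may not be its own.

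**Figure D1:**
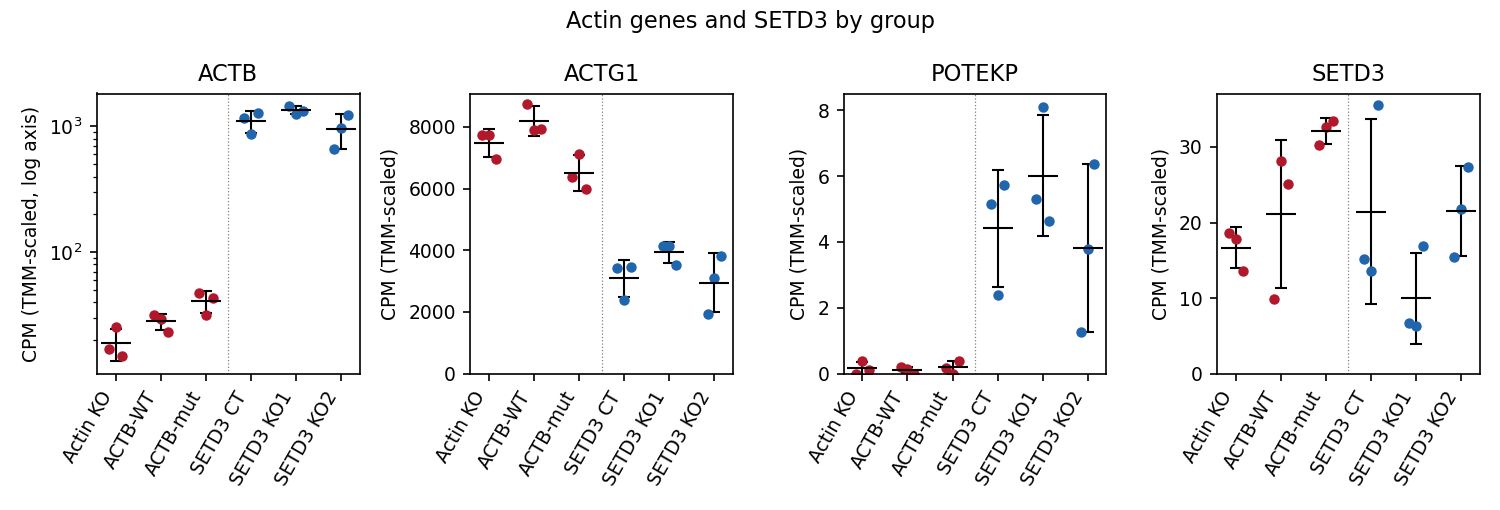
CPM of ACTB (log axis), ACTG1, POTEKP and SETD3 in each of the 6 groups, ACTB-depleted groups in red on the left and ACTB-intact groups in blue on the right; points are libraries, long bars the mean and whiskers the SD of 3 libraries. ACTB and POTEKP lie lower, and ACTG1 higher, in all 9 ACTB-depleted libraries, while SETD3 overlaps.

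SETD3, the engineered gene of the ACTB-intact table, did not mark its knockout groups by RNA. It averaged 16.7 ± 2.69 CPM in Actin KO, 32.1 ± 1.69 CPM in ACTB-mut and 21.1 ± 9.78 CPM in ACTB-WT, against 9.99 ± 6.03 in KO1, 21.5 ± 5.92 in KO2 and 21.4 ± 12.2 in SETD3 CT (SD, n = 3 each). Across the split its log2 difference was 0.43 (SE 0.26, adjusted p = 0.603). SMARCA4, the remodeller ATPase of the series title, stood at 128, 184 and 230 CPM with ACTB depleted against 136, 197 and 241 CPM with ACTB intact (log2 -0.07, SE 0.12, adjusted p = 0.924), and both genes overlapped fully.

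Across all 15580 tested genes, 184 were called at an adjusted p below 0.05, which is 1.18%. Of these, 83 (0.533%) were higher and 101 (0.648%) lower with ACTB depleted, and 27 of the higher and 43 of the lower differed at least 2-fold. The median log2 difference of all tested genes was 0.01. Over 7203 genes above 10 CPM it fell with the share of G and C in a gene's longest transcript (Spearman correlation -0.24). The cause of this trend between the tables was not tested. With offsets for that share, 180 of the 184 calls stayed. Most called genes overlapped: in 166 of the 184 at least 1 library of one table lay within the range of the other. Only 20 genes, 0.128% of those tested, had every library of one table outside the other, and 18 of them (0.116%) were also called, 9 higher and 9 lower (0.0578% each). Of those 18, 10 differed at least 2-fold, 3 of them higher and 7 lower. The lower genes include ACTB, whose low RNA was known when the split was drawn, and POTEKP, whose reads may be shared with ACTB.

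The split between the tables held 7.45% of the summed squares of log2 levels, against 25.6% between groups within a table and 66.9% between replicates of a group. Above 10 CPM, over 7216 genes, the shares were 10.7%, 27.7% and 61.6%. These shares are not scaled by how many tables, groups and libraries stand behind each. They therefore do not rank the split against the other sources. Libraries of the same group correlated at a median of 0.9346 over 18 pairs, those of another group in the same table at 0.9164 and those of the other table at 0.9135. The fit gives each of the 6 groups its own mean, so its errors hold the spread between replicates and not that between groups of a table. When the 6 group means were set 3 against 3, 1 gene was called higher, ACTG1, and 5 lower, ACTB, POTEKP, KRT6A, AREG and S100A4. Of these, ACTB describes the split itself, and POTEKP may share its reads.

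**Figure D2:**
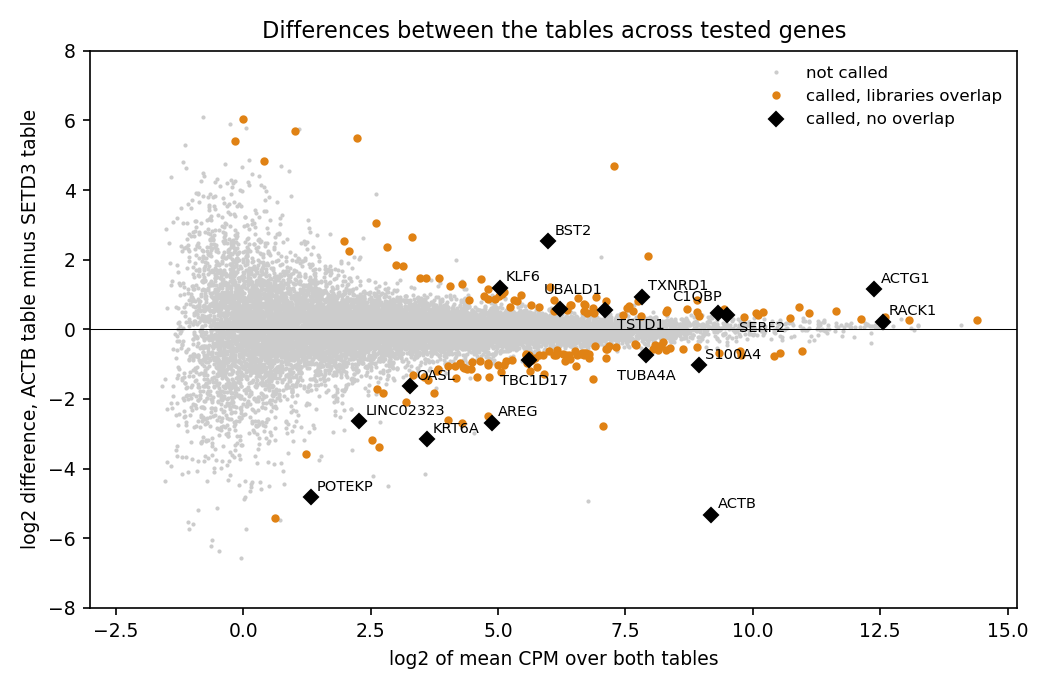
Log2 difference (ACTB table minus SETD3 table) against log2 of the mean CPM over both tables for the tested genes; grey points were not called, orange points were called with overlapping libraries and black diamonds, named, were called with none overlapping. ACTB at -5.32 and ACTG1 at 1.16 stand out at high levels.

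Among the genes that were lower with ACTB depleted, the widest gaps after the actin sequences belonged to an epidermal keratin and a growth factor. KRT6A, a keratin of activated and stratified epithelia (chr12:52487174-52493257), ran at 0.898, 2.33 and 5.44 CPM in ACTB-depleted libraries and 11.7, 23 and 31.1 CPM in ACTB-intact libraries (log2 -3.16, SE 0.30, adjusted p = 9.20e-07). The nearest libraries were 2.14-fold apart, and SETD3 CT at 11.7 to 14.2 CPM was the lowest ACTB-intact group. KRT6A has the near-identical paralogs KRT6B and KRT6C, so the division of reads among them is uncertain. AREG, amphiregulin, a ligand of the EGF receptor whose promoter is printed above (chr4:74445134-74455009), measured 1.62, 8.1 and 13.6 CPM with ACTB depleted against 22.8, 50.4 and 84.4 CPM with ACTB intact (log2 -2.68, SE 0.27, adjusted p = 2.35e-06). SETD3 KO1 was highest at 69.6 to 84.4 CPM. Actin KO at 8.1 to 10.4 CPM lay below SETD3 CT at 23.1 to 54 CPM, but this pair of groups alone gave an adjusted p of 0.109.

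EREG, epiregulin, a neighbouring EGF-receptor ligand gene on chromosome 4, was named after its values were seen. Its levels of 0.547, 14.5 and 20.3 CPM with ACTB depleted and 11.5, 45.2 and 77.5 CPM with ACTB intact overlapped (log2 -2.48, SE 0.34, adjusted p = 3.43e-04). ACTB-WT was lowest at 1.76 ± 1.98 CPM, against 17.0 ± 2.95 in Actin KO and 16.4 ± 3.22 in ACTB-mut (SD, n = 3 each). The log2 difference was -1.38 without ACTB-WT.

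S100A4, a calcium-binding protein that binds non-muscle myosin and is linked to cell motility (chr1:153543613-153550136), was the most abundant gene of the separated lower set after ACTB. It measured 235, 309 and 483 CPM with ACTB depleted and 537, 639 and 853 CPM with ACTB intact (log2 -1.02, SE 0.10, adjusted p = 2.35e-06). Its call held in all 37 alternative settings, although the nearest libraries were only 1.11-fold apart. TUBA4A, an alpha-tubulin isotype, measured 144, 184 and 219 against 222, 313 and 425 CPM (log2 -0.74, SE 0.11, adjusted p = 4.87e-04), with a gap of 1.01-fold between the nearest libraries. TBC1D17, a GTPase-activating protein for Rab proteins, measured 19.4, 33.4 and 46.7 against 49, 56 and 98.4 CPM (log2 -0.88, SE 0.16, adjusted p = 0.00529). Both ran lower in all ACTB-depleted libraries by a narrow margin.

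OASL, an interferon-stimulated protein of the oligoadenylate synthetase family, was separated at low levels. It ran at 2.05, 4.5 and 9.04 CPM with ACTB depleted against 10, 11 and 22.7 CPM with ACTB intact (log2 -1.63, SE 0.29, adjusted p = 0.00328). The nearest libraries, of Actin KO and of KO1, differed 1.11-fold, and Actin KO against SETD3 CT alone gave log2 -0.94. LINC02323, a long non-coding RNA, measured 0, 1.64 and 2.18 against 2.47, 7.18 and 14.3 CPM (log2 -2.63, SE 0.54, adjusted p = 0.0118). HABP4, which encodes a hyaluronan- and RNA-binding protein, and PLEKHB2, a recycling-endosome protein, also did not overlap but missed the threshold, at log2 -0.77 (SE 0.20, adjusted p = 0.0653) and -0.47 (SE 0.12, adjusted p = 0.0631).

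**Figure D3:**
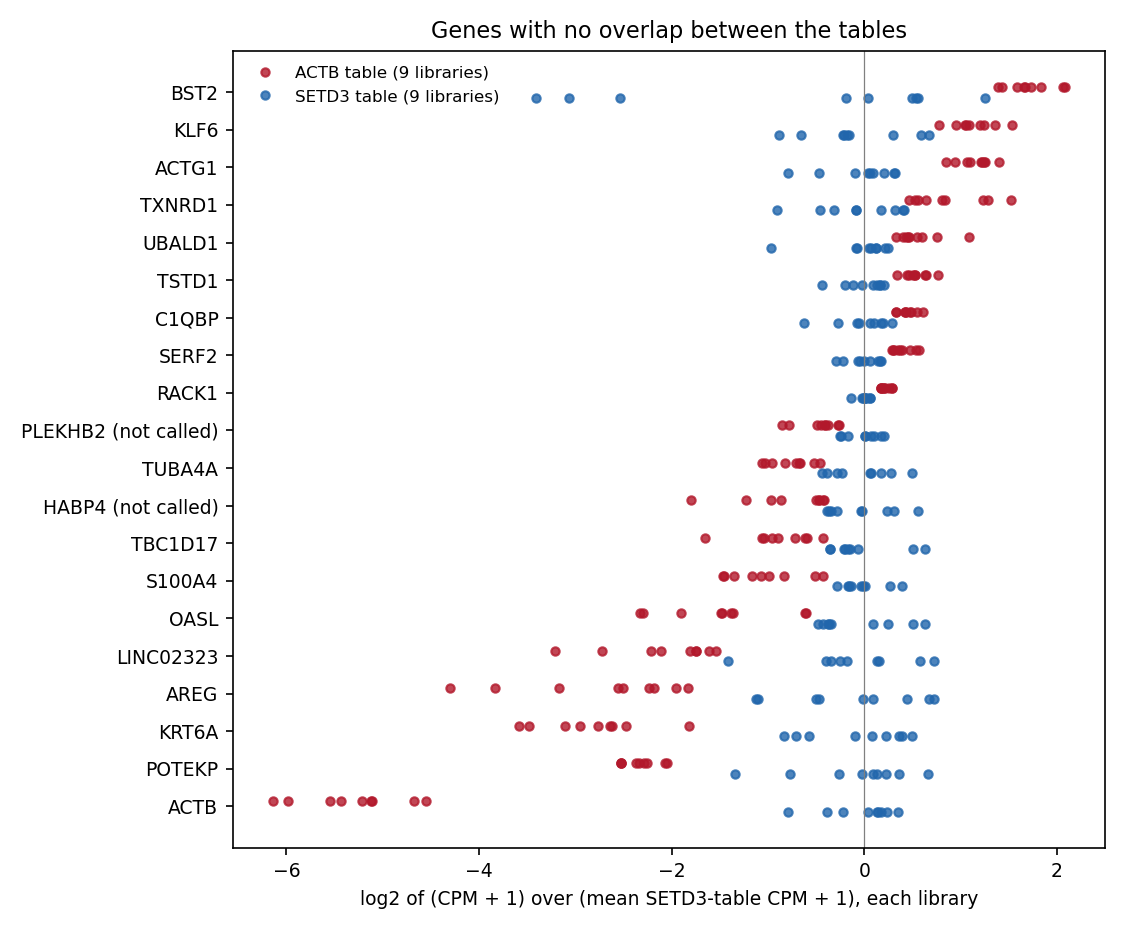
Log2 of CPM + 1 in each library relative to the mean of the SETD3 table, for the 20 genes whose tables do not overlap; red points are the 9 ACTB-depleted and blue points the 9 ACTB-intact libraries of each gene. ACTB, POTEKP, KRT6A, AREG and ACTG1 have the widest gaps, and the 3 lowest BST2 points are the KO1 libraries.

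BST2, tetherin, an interferon-stimulated membrane protein that holds budding virions at the cell surface (chr19:17402939-17405648), had the largest fold among the separated genes that were higher. Its levels were 76.9, 93.7 and 125 CPM with ACTB depleted and 1.8, 29.4 and 69.6 CPM with ACTB intact (log2 2.54, SE 0.16, adjusted p = 9.49e-10). KO1 at 4.12, 2.55 and 1.8 CPM set much of this size: without KO1 the log2 difference was 1.27, and without KO2 it was 3.34. Actin KO at 118 ± 11.2 CPM against SETD3 CT at 32.3 ± 9.1 CPM (SD, n = 3 each) gave log2 1.85 and was called on its own.

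KLF6, a zinc-finger transcription factor induced by stress and injury (chr10:3775996-3785281), measured 34.8, 43.3 and 59.7 CPM against 10.3, 17.4 and 32.3 CPM (log2 1.20, SE 0.19, adjusted p = 0.00145). TXNRD1, cytosolic thioredoxin reductase, measured 216, 274 and 449 CPM against 82.6, 147 and 208 CPM (log2 0.94, SE 0.10, adjusted p = 3.49e-06). ACTB-mut was the highest group of TXNRD1 at 399 ± 43 CPM and SETD3 CT the lowest at 107 ± 21.8 CPM, so groups differed within each table as well. Both genes were set apart by 1.04- to 1.08-fold between the nearest libraries.

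The other 5 separated genes that were higher differed by less than 1.6-fold. TSTD1, a sulfurtransferase-like protein, had a log2 difference of 0.54 (SE 0.10, adjusted p = 0.00454), and SERF2 one of 0.41 (SE 0.08, adjusted p = 0.0121). C1QBP, a mitochondrial matrix protein that also binds complement C1q, measured 674, 727 and 821 CPM with ACTB depleted against 348, 558 and 657 CPM with ACTB intact (log2 0.46, SE 0.10, adjusted p = 0.0154). C1QBP was no longer called with total-count scaling (adjusted p = 0.063). RACK1, a scaffold protein on the small ribosomal subunit, measured 6224, 6366 and 6762 CPM against 5042, 5579 and 5754 CPM (log2 0.22, SE 0.05, adjusted p = 0.047). Leaving out 1 library ended its call in 16 of 18 cases, all but SETD3 KO2 replicates 1 and 3. UBALD1 (log2 0.59, SE 0.14, adjusted p = 0.0451) lost its call in 15 of those 18 cases, all but Actin KO replicate 1, SETD3 CT replicate 2 and SETD3 KO2 replicate 1.

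Few genes of the actin cytoskeleton were called beside the actins, and the counts of calls lay near the 1.18% called over all tested genes. Of 33 tested SRF-MRTF targets other than the actins, 0 were called in edgeR and 0 in DESeq2. At an unadjusted p below 0.05 stood 5 targets above and 3 below 0, beside 1726 of all 15580 tested genes, which is a smaller share. The targets had a median log2 difference of 0.08, beside 0.01 over all tested genes. CFL1, cofilin, averaged 3870 ± 567 CPM in ACTB-depleted and 3454 ± 243 CPM in ACTB-intact libraries (SD, n = 9 each; log2 0.15, SE 0.07, adjusted p = 0.402). FLNA, filamin A, was at log2 0.35 (SE 0.11, adjusted p = 0.162), and PFN1, profilin, at 0.09 (SE 0.11, adjusted p = 0.876). Each of these genes overlapped between the tables. Beside 0.533% of all tested genes called higher, 1 of 49 tested actin assembly factors was called, TMSB10, a thymosin that binds unpolymerised actin. It measured 2032, 2530 and 3028 CPM with ACTB depleted against 1073, 1841 and 2730 CPM with ACTB intact (log2 0.47, SE 0.09, adjusted p = 0.0078), and without KO2 the adjusted p was 0.258.

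Other parts of the machinery had 0 called members in edgeR: 32 crosslinkers and spectrins (median log2 0.07), 21 myosin II and tropomyosin genes (-0.03), 12 actin-modifying enzymes (0.11), 16 subunits of the actin-folding chaperones TRiC and prefoldin (0.04) and 17 integrins (0.22). Over all tested genes 1.18% were called in edgeR, so 0 calls in lists of this size are near that share. At an unadjusted p below 0.05 these lists held 8, 5, 1, 1 and 4 members, beside 1726 of all 15580 tested genes. That is a larger share than over all genes for crosslinkers and spectrins, myosin II and tropomyosin genes, and integrins, with members on both sides of 0. DESeq2 called 1 crosslinker and 1 integrin. The integrin nearest to a call was ITGB5, at 40.8 ± 11.4 against 25.6 ± 8.86 CPM (log2 0.72, SE 0.20, adjusted p = 0.0873). Of 43 focal adhesion components only TNS4, a tensin of adhesion sites, was called (log2 1.06, SE 0.22, adjusted p = 0.0127), beside 0.533% of all tested genes called higher. Of 33 junction genes edgeR called 1 lower, the adhesion molecule NECTIN2, beside 0.648% of all tested genes. DESeq2 and edgeR with total-count scaling each called 3 lower. NECTIN2 stood at 80.6, 115 and 138 against 117, 168 and 197 CPM (log2 -0.56, SE 0.12, adjusted p = 0.0164). Among genes outside the lists and named after their values were seen, COTL1, which binds filamentous actin, was lower (log2 -0.49, SE 0.08, adjusted p = 0.00246), as was LIMK1, the kinase that inactivates cofilin (log2 -0.92, SE 0.18, adjusted p = 0.00665), a gene in the stretch of chromosome 7 described at the end. COTL1 stood at 260 ± 6.75 CPM in Actin KO and 260 ± 14.2 CPM in SETD3 CT (SD, n = 3 each), so that pair of groups did not carry its difference.

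ATF4 and 8 other genes of the amino acid response it drives were called higher with ACTB depleted, of 31 tested. ATF4 is translated when the integrated stress response is on and activates amino acid synthesis, transport and tRNA charging genes. These 9 calls stand beside 0.533% of all tested genes called higher, and 0 members were called lower, with 13 higher and 0 lower at an unadjusted p below 0.05. In all, 23 members had a log2 difference above 0, and the median was 0.29. ATF4 itself measured 188, 233 and 321 CPM with ACTB depleted against 118, 147 and 195 CPM with ACTB intact (log2 0.66, SE 0.10, adjusted p = 0.00117). PHGDH, the first enzyme of serine synthesis, measured 198, 269 and 381 against 117, 140 and 232 CPM (log2 0.81, SE 0.12, adjusted p = 4.92e-04). Their ranges overlapped at the edges, with the ACTB-depleted median above the highest ACTB-intact library in both genes.

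ASNS, asparagine synthetase, measured 38.8, 55 and 83 CPM against 13.4, 27.2 and 45 CPM (log2 0.98, SE 0.21, adjusted p = 0.0186). CHAC1, which degrades glutathione, measured 11.8, 18.9 and 33.4 CPM against 0.949, 7.71 and 19.6 CPM (log2 1.46, SE 0.33, adjusted p = 0.0285). The other called members were DDIT4, an inhibitor of mTORC1 (log2 0.89, SE 0.12, adjusted p = 1.50e-04), the pseudokinase TRIB3 (0.70, adjusted p = 0.0114), the secreted glycoprotein STC2 (1.15, adjusted p = 0.00491), the glycyl-tRNA synthetase GARS1 (0.46, adjusted p = 0.0164) and PYCR1 of proline synthesis (0.39, adjusted p = 0.0494). TGATGNAAN stood in 3 of the 8 called members with a promoter window, ASNS, CHAC1 and GARS1, and in 6 of 25 members with a window.

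Some of these calls rested on single libraries. ASNS was lost without Actin KO replicate 1 (adjusted p = 0.0526), GARS1 without ACTB-WT replicate 3 or ACTB-mut replicate 1 (at most 0.0538), and CHAC1 and PYCR1 in 8 and 15 of the 18 cases of leaving out 1 library. With the 6 group means in limma, and with Actin KO against SETD3 CT alone in edgeR, 0 members were called. Over all settings the count called higher ran from 0 to 10 and the list's median from 0.18 to 0.37. DDIT3, the stress-induced factor CHOP, stood at 10.5 ± 4.88 against 8.4 ± 5.1 CPM (log2 0.32, SE 0.36, adjusted p = 0.854). Of 26 tested endoplasmic reticulum chaperones 0 were called in edgeR or DESeq2 (median 0.03, 1 at an unadjusted p below 0.05), beside 1.18% of all tested genes in edgeR.

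**Figure D4:**
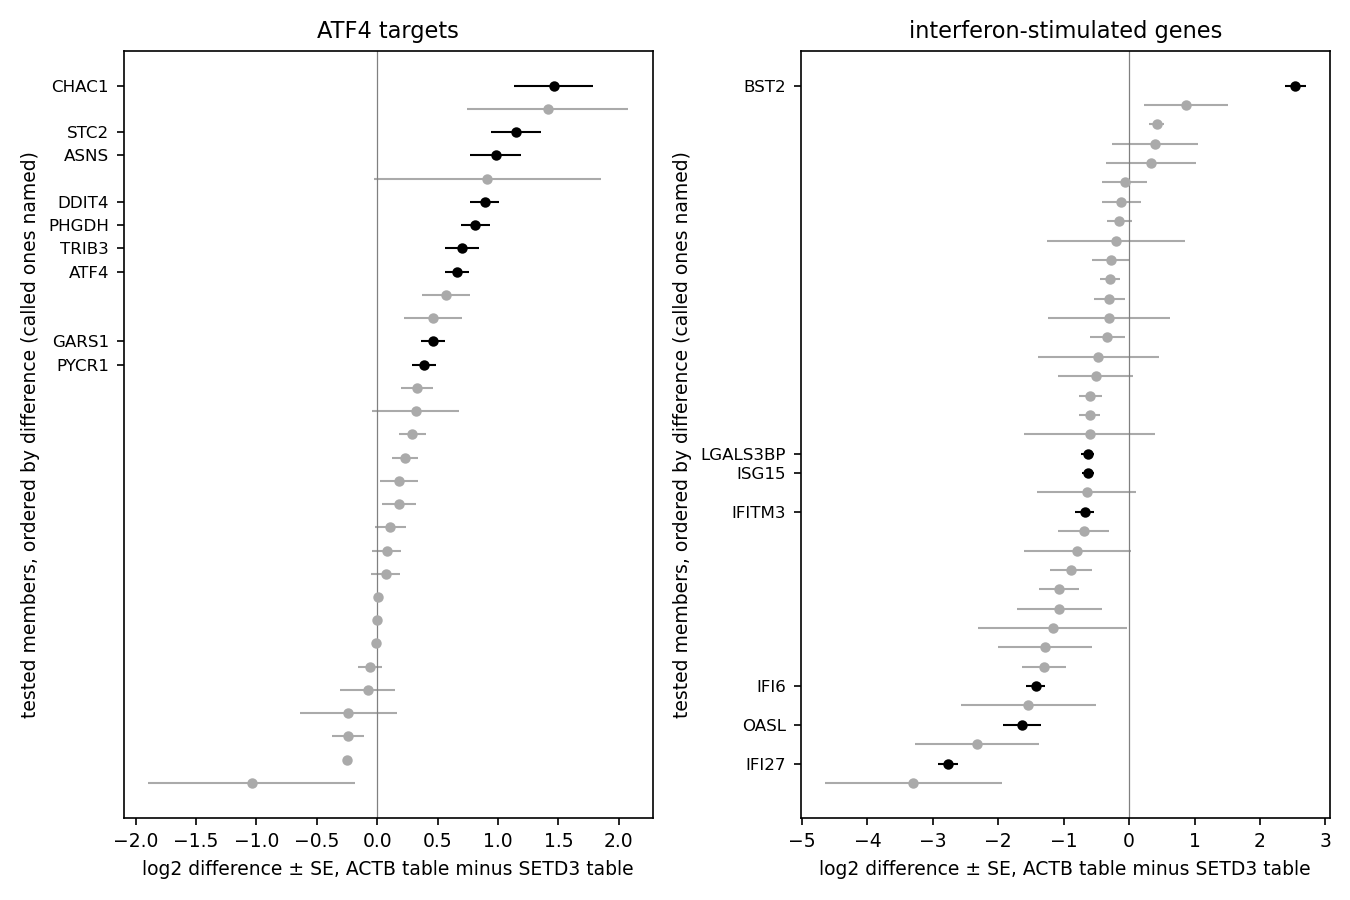
Log2 difference ± SE (ACTB table minus SETD3 table) of the tested ATF4 targets, left, and interferon-stimulated genes, right; black points, named, were called, grey ones were not, and members without bars had a test statistic too small to give an SE. In the plot, 9 ATF4 targets were called above 0, and 6 interferon-stimulated genes were called below 0 with BST2 alone above it.

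Immediate early genes and AP-1 factors, which respond within minutes to growth factors and stress, had 5 called members of 26 tested, all higher, beside 0.533% of all tested genes, with a median log2 difference of 0.33 and 20 above 0. On group means 0 of the 26 were called, and between Actin KO and SETD3 CT alone 1 was. KLF6 was separated, as described above. KLF2, a related zinc-finger factor, measured 19.8, 43.5 and 52.6 CPM with ACTB depleted against 17.7, 19.3 and 28.5 CPM with ACTB intact (log2 0.86, SE 0.16, adjusted p = 0.00473). ACTB-WT, at 26.5 ± 6.23 CPM, was the low group of its side. IER3 (log2 0.58, SE 0.09, adjusted p = 0.00101) and IER2 (log2 0.52, SE 0.09, adjusted p = 0.00294) were called with overlap. FOSL1, a subunit of AP-1, was high in Actin KO alone, at 319 ± 16.5 CPM, beside ACTB-mut at 156 ± 16.1, ACTB-WT at 136 ± 15.0 and SETD3 CT at 140 ± 4.26 CPM (SD, n = 3 each). Its call (log2 0.40, SE 0.09, adjusted p = 0.0205) was lost without Actin KO replicate 3, ACTB-WT replicate 2, ACTB-mut replicate 1 or KO1 replicate 3. FOS, JUN and EGR1 were not called, with log2 differences of -0.33, 0.41 and -0.08. FOSL1 was also the only called member of 25 YAP-TAZ targets, which had a median of 0.33, beside 0.533% of all tested genes called higher. CCN1, a standard YAP readout, averaged 7.48 ± 3.28 against 3.6 ± 3.0 CPM (log2 1.08, SE 0.51, adjusted p = 0.441).

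Among interferon-stimulated genes more calls were lower than higher. Of 37 tested, 6 were called lower and 1, BST2, higher, beside 0.648% and 0.533% of all tested genes, and 32 had a log2 difference below 0 with a median of -0.60. IFI27, a mitochondrial interferon-induced protein, measured 4.29, 14.7 and 57.5 CPM with ACTB depleted against 30.6, 70.5 and 691 CPM with ACTB intact (log2 -2.77, SE 0.15, adjusted p = 2.67e-11). IFI6, of the same family, measured 17.4, 32.3 and 170 against 39.6, 163 and 343 CPM (log2 -1.43, SE 0.14, adjusted p = 2.35e-06). Both varied strongly within each side. Actin KO averaged 146 ± 22.6 CPM of IFI6, ACTB-WT 21.6 ± 4.89 and ACTB-mut 32.8 ± 13.3, against 298 ± 39 in KO2, 42.2 ± 4.22 in KO1 and 159 ± 26 in SETD3 CT (SD, n = 3 each).

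Without KO2 the log2 difference was -1.59 for IFI27 and -0.80 for IFI6, and between Actin KO and SETD3 CT alone IFI6 differed by -0.13 (adjusted p = 0.982) and IFI27 by -0.66 (adjusted p = 0.711). ISG15, the ubiquitin-like modifier, measured 1120, 1240 and 2399 CPM against 1103, 2725 and 3368 CPM (log2 -0.63, SE 0.09, adjusted p = 3.00e-04), with KO1 at 1447 ± 331 CPM among the low groups. The antiviral membrane protein IFITM3 (log2 -0.68, SE 0.15, adjusted p = 0.0164) and the secreted LGALS3BP (log2 -0.63, SE 0.10, adjusted p = 0.00165) were also lower. IFITM2, a near-identical relative of IFITM3, was at log2 0.42 (SE 0.11, adjusted p = 0.0773), and how reads divide between them is uncertain. GAAANNGAAA stood in all 6 called members with a promoter window, BST2 with its opposite direction included, and in 23 of the 35 members with a window. Over all settings the count called lower ran from 0 to 10 and the median from -0.88 to -0.29.

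Genes of MHC class I presentation had 1 called member of 18, HLA-B, beside 0.648% of all tested genes called lower, with 17 log2 differences below 0 and a median of -0.34. DESeq2 and edgeR with total-count scaling each called 5 of the 18 lower, and 0 were called on group means. HLA-B measured 305, 391 and 470 CPM with ACTB depleted against 460, 563 and 720 CPM with ACTB intact (log2 -0.50, SE 0.09, adjusted p = 0.00228). The overlap came from Actin KO, at 454 ± 20.5 CPM. HLA class I genes are near-identical to each other, so their division is uncertain. HLA-E was at -0.41 (SE 0.11, adjusted p = 0.0677).

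Keratins and the S100 and annexin genes held a few further calls. Of 16 keratins 2 were called lower, KRT6A and KRT13, both of stratified epithelium, beside 0.648% of all tested genes. The simple-epithelial KRT8, KRT18 and KRT19 were at -0.11, 0.12 and 0.25 and not called. Actin KO averaged 0.494 ± 0.666 CPM of KRT13, ACTB-mut 1.41 ± 1.8 and ACTB-WT 46.7 ± 12.0, against 15.2 ± 8.21 in KO1, 16.8 ± 7.84 in KO2 and 37.3 ± 10.0 in SETD3 CT (SD, n = 3 each; log2 -2.69, SE 0.45, adjusted p = 0.00179). ACTB-WT thus lay on the ACTB-intact side for KRT13. Of 21 S100 and annexin genes 3 were called lower, S100A4, S100A14 and S100A2, and 1 higher, ANXA3, beside 0.648% and 0.533% of all tested genes (median 0.05). On group means S100A4 alone of these stayed called. S100A14 measured 359, 456 and 697 against 530, 838 and 1314 CPM (log2 -0.68, SE 0.10, adjusted p = 4.87e-04). ANXA3 (log2 1.23, SE 0.29, adjusted p = 0.0312) was no longer called in 10 of the 18 cases of leaving out 1 library.

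Named after their values were seen, 2 secreted defence proteins were lower. SLPI, a leukocyte protease inhibitor, ran at 0, 0.878 and 2.69 CPM against 0.9, 8.86 and 18.7 CPM (log2 -3.17, SE 0.60, adjusted p = 0.0061). LCN2, a siderophore-binding lipocalin, ran at 0.527, 4.38 and 12.6 against 6.48, 29.3 and 58.9 CPM (log2 -2.61, SE 0.42, adjusted p = 0.00145). SETD3 CT, at 8.31 ± 1.62 CPM, was low for LCN2 as well, and against Actin KO alone the log2 difference was -0.20. MT2A, a metallothionein named in the same way, was higher at 1607, 2389 and 2846 against 991, 1314 and 2488 CPM (log2 0.64, SE 0.07, adjusted p = 1.67e-05), with SETD3 CT at 2227 ± 305 CPM close to the ACTB-depleted groups.

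Called genes also differed between the groups of a side. SPARC, a matrix glycoprotein, averaged 660 ± 89.9 CPM in ACTB-mut, 205 ± 39.9 in Actin KO and 31.8 ± 10.1 in ACTB-WT, against 3.54 ± 2.65 in KO1, 3.19 ± 0.593 in KO2 and 21.2 ± 13.8 in SETD3 CT (SD, n = 3 each; log2 4.70, SE 0.26, adjusted p = 6.04e-11). The lowest ACTB-WT library, at 24.6 CPM, lay below the highest SETD3 CT library, at 34.5 CPM. BMP4, a secreted morphogen and Wnt target, averaged 171 ± 20.6, 780 ± 41.5 and 255 ± 35.7 CPM in Actin KO, ACTB-WT and ACTB-mut, against 55.4 ± 9.81 in KO1, 45.6 ± 2.51 in KO2 and 167 ± 34.2 in SETD3 CT (log2 2.11, SE 0.11, adjusted p = 1.43e-11). Actin KO against SETD3 CT alone gave log2 0.03 for BMP4. SLC2A1, the glucose transporter GLUT1, was high in ACTB-WT alone at 444 ± 2.39 CPM, with Actin KO at 77.0 ± 14.7, ACTB-mut at 77.6 ± 16.6 and SETD3 CT at 66.2 ± 9.47 CPM (log2 0.81, SE 0.12, adjusted p = 9.29e-04).

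For LY6D, a surface protein of stratified epithelium, the mean and the fit differed in sign. Its mean was higher in ACTB-depleted libraries, at 59.4 against 39.6 CPM, but its fitted log2 difference was -1.21 (SE 0.21, adjusted p = 0.00316). ACTB-WT at 174 ± 17.6 CPM and KO2 at 103 ± 36.9 CPM stood far above their sides and carried the means. The fit averages groups on the log scale. There Actin KO at 3.26 ± 0.331 and ACTB-mut at 0.861 ± 0.307 CPM lay below SETD3 CT at 9.46 ± 4.44 and KO1 at 6.23 ± 2.49 CPM. Without ACTB-mut the log2 difference was 0.37. DPP4, an intestinal brush-border peptidase, had at most 1.16 CPM in ACTB-depleted libraries, but SETD3 CT was as low at 0.208 ± 0.217 CPM, against 10.9 ± 6.8 in KO1 and 25.5 ± 4.86 in KO2 (log2 -3.39, SE 0.72, adjusted p = 0.0164). Its call was lost without SETD3 CT replicate 1 or 2. Of 33 matrix and basement membrane genes 1 was called higher, SPARC, and 1 lower, the collagen gene COL6A1 (median -0.25). DPP4 was the only edgeR call among 12 intestinal differentiation genes (median -0.26). Over all tested genes 0.533% were called higher and 0.648% lower. DESeq2 called 1 matrix gene higher and 2 lower, and 2 intestinal genes lower. The mesenchymal genes of epithelial-mesenchymal transition had SPARC as 1 higher call of 14, and TGFB1, S100A4 and COL6A1 as 3 lower calls (median -0.17), beside 0.533% and 0.648% of all tested genes. TGFB1, a cytokine that drives that transition, measured 17.9, 27.2 and 33.4 CPM with ACTB depleted against 31.1, 49.3 and 71.1 CPM with ACTB intact (log2 -0.90, SE 0.18, adjusted p = 0.0078), with overlap at the edge.

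Called ribosomal protein genes differed by small amounts, and the other translation lists held few calls. Of 81 cytosolic ribosomal protein genes 7 were called higher and 0 lower, beside 0.533% and 0.648% of all tested genes (21 and 1 at an unadjusted p below 0.05), with 63 above 0 and a median of 0.12. RPS2 measured 20729, 23481 and 25825 CPM with ACTB depleted against 16918, 19467 and 23615 CPM with ACTB intact (log2 0.28, SE 0.05, adjusted p = 0.00797), and RPLP0 5748, 7159 and 7978 against 4593, 5449 and 6384 CPM (log2 0.34, SE 0.06, adjusted p = 0.00294). RPSA (0.29, adjusted p = 0.015) and RPS15A (0.50, adjusted p = 0.0163) were the others that kept their call in every fit leaving out 1 library. RPL41, RPL21 and RPS27 lost theirs in 13 or 14 of those 18 fits. DESeq2 called 10 higher, total-count scaling 4, and 0 were called on group means or between Actin KO and SETD3 CT alone. Ribosomal protein genes have many near-identical pseudogenes, so their counts are uncertain. Of 53 translation factors only EEF1A2, the tissue-restricted elongation factor, was called, lower at 775, 1014 and 1180 against 1028, 1684 and 2468 CPM (log2 -0.76, SE 0.11, adjusted p = 4.87e-04; list median 0.02). Of 62 ribosome biogenesis factors 0 were called in edgeR and 1 in DESeq2 (median 0.11; 6 at an unadjusted p below 0.05).

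Chromatin, growth and metabolic lists held few calls, beside 0.533% of all tested genes called higher and 0.648% called lower. Of 42 tested genes of BAF and other actin-containing remodellers 0 were called in edgeR (median 0.04), as were 0 of 47 DNA replication genes (0.02), 0 of 67 nuclear oxidative phosphorylation genes (0.10), 0 of 23 HOX genes (-0.06) and 0 of 15 mitochondrially encoded transcripts (-0.32). At an unadjusted p below 0.05 they held 3, 10, 14, 2 and 5 members, beside 1726 of all 15580 tested genes. That is a larger share than over all genes for the replication, oxidative phosphorylation and mitochondrially encoded lists. DESeq2 called 1, 0, 3, 1 and 1. The summed mitochondrial transcripts ran at 6617, 7825 and 16434 CPM against 7834, 9894 and 17951 CPM. MKI67, the proliferation marker, was the only edgeR call of 51 mitotic genes (median -0.01), of which DESeq2 called 3 lower. It stood at 57.8, 73.6 and 106 CPM with ACTB depleted against 71.1, 132 and 186 CPM with ACTB intact (log2 -0.74, SE 0.13, adjusted p = 0.00271). SETD3 CT at 82.9 ± 11.1 CPM lay with the ACTB-depleted groups, and against Actin KO alone the log2 difference of MKI67 was 0.12. GDF15, a stress-induced cytokine, was the only edgeR call of 27 p53 targets, of which DESeq2 called 1 higher and 2 lower (log2 0.51, SE 0.09, adjusted p = 0.00354; list median -0.18), and was at -0.07 between Actin KO and SETD3 CT alone.

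The counts of the next lists stand beside 0.533% of all tested genes called higher and 0.648% called lower. Glycolysis and hypoxia genes had 2 calls higher, SLC2A1 and DDIT4, and 1 lower, the aldolase ALDOC, of 42 (median 0.08). Wnt targets had 2 higher of 22, BMP4 and the Wnt inhibitor DKK1 (median 0.16). DKK1 measured 400, 581 and 901 against 187, 303 and 645 CPM (log2 0.83, SE 0.17, adjusted p = 0.0106). ACTB-WT was highest at 877 ± 20.9 CPM, with ACTB-mut at 573 ± 17.4 and Actin KO at 407 ± 6.36 CPM. The ACTB-intact groups were at 440 ± 224 in KO2, 330 ± 130 in SETD3 CT and 250 ± 50.4 CPM in KO1. Over the 37 alternative settings its log2 difference ran from 0.29 to 1.10. Replication-dependent histone genes, whose transcripts mostly lack poly(A) tails, had 1 higher of 20, H4C3, at 2836, 3828 and 4505 against 2010, 2365 and 3844 CPM (log2 0.53, SE 0.08, adjusted p = 5.54e-04; median 0.41).

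Differences by chromosome position were read because ACTB was the engineered locus. They were looked at after other values had been seen, DNA copy number was not measured, and its part was not tested. The 32 genes above 10 CPM between the short-arm end of chromosome 7 and ACTB, spanning chr7:192969-5513798, were lower in Actin KO than in the ACTB-intact mean. Their median log2 difference was -0.99, -0.95 and -0.86 in the 3 Actin KO libraries, with 32 of 32 genes below 0 in the group mean. ACTB-WT libraries were at 0.10, 0.06 and -0.08 and ACTB-mut libraries at -0.23, -0.09 and -0.13, within the range of single ACTB-intact libraries, -0.29 to 0.41. The 16 genes in the first 5 Mb on the other side of ACTB were at 0.21 in Actin KO, at -0.29 in ACTB-mut and at -0.11 in ACTB-WT. The 3 groups, all labelled as Actin KO cells, thus differed from each other next to the engineered gene. Whether they come from the same knockout clone is not given by the labels.

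A second stretch of chromosome 7, from 70000001 to 80000000, had a median of -0.54 over 41 genes in Actin KO, against 0.08 in ACTB-WT and -0.12 in ACTB-mut. Further along, Actin KO was higher. Its median was 0.31 over 52 genes from 100000001 to 110000000, 0.57 over 23 genes from 140000001 to 150000000 and 0.36 over 30 genes from 150000001 to 160000000. There ACTB-WT was at -0.03, 0.05 and -0.04 and ACTB-mut at -0.10, 0.00 and -0.13. Chromosome 21, with 83 genes, was at 0.48 in Actin KO, 0.18 in ACTB-mut and -0.10 in ACTB-WT, against 0.01 in KO1, -0.14 in KO2 and 0.13 in SETD3 CT. Medians of all other whole chromosomes lay between -0.09 and 0.16 in Actin KO, with chromosome 7, which held both lower and higher stretches, at 0.16. Of 108 stretches of 10 Mb with at least 20 genes, 8 in Actin KO had a median at least 0.25 from 0, 7 of them on chromosomes 7 and 21, as did 8 in ACTB-mut (3 on those chromosomes), against 1 in KO2 and 0 each in ACTB-WT, KO1 and SETD3 CT.

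Chromosome 7 held 8 calls higher and 6 lower of 738 tested genes (1.9%) and chromosome 21 held 3 higher and 1 lower of 166 (2.41%), beside 1.18% over all genes. Chromosome 19 reached 1.83% (7 higher and 14 lower of 1147) and chromosome 20 reached 1.73%. The share on chromosome 7 was thus not particular to it, and that on chromosome 21 rests on few calls. In all, 4 of the lower calls on chromosome 7 lie in the stretch before ACTB. Of these, the mitotic checkpoint gene MAD1L1 averaged 23.3 CPM in Actin KO, 35.9 in ACTB-mut and 38.7 in ACTB-WT, against 66.1 in KO1, 58.5 in KO2 and 62.4 in SETD3 CT (log2 -0.96, SE 0.18, adjusted p = 0.0046), and so was lower in all 3 groups. LIMK1 lies in the second stretch of chromosome 7 and was at -1.42 in ACTB-WT, -0.82 in Actin KO and -0.60 in ACTB-mut relative to the ACTB-intact mean, on the log2 scale. ASNS and GARS1 of the ATF4 list also lie on chromosome 7. ASNS stood at 63.0 ± 17.3, 59.4 ± 10.6 and 51.4 ± 11.2 CPM in Actin KO, ACTB-WT and ACTB-mut, against 31.2 ± 15.7 in SETD3 CT (SD, n = 3 each). COL6A1, on chromosome 21, was lower (log2 -0.71, SE 0.12, adjusted p = 0.00177). The 3 higher calls there, named after their values were seen, were SOD1 (0.51), HMGN1 (0.55) and MIS18A (0.65). HMGN1 and MIS18A lost their call in 12 and 13 of the 18 cases of leaving out 1 library. All 3 lie from 30000001 to 40000000, where Actin KO was at 0.60 and ACTB-mut at 0.63. COL6A1 lies from 40000001 to 50000000, where these groups were at 0.39 and -0.27.

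**Figure D5:**
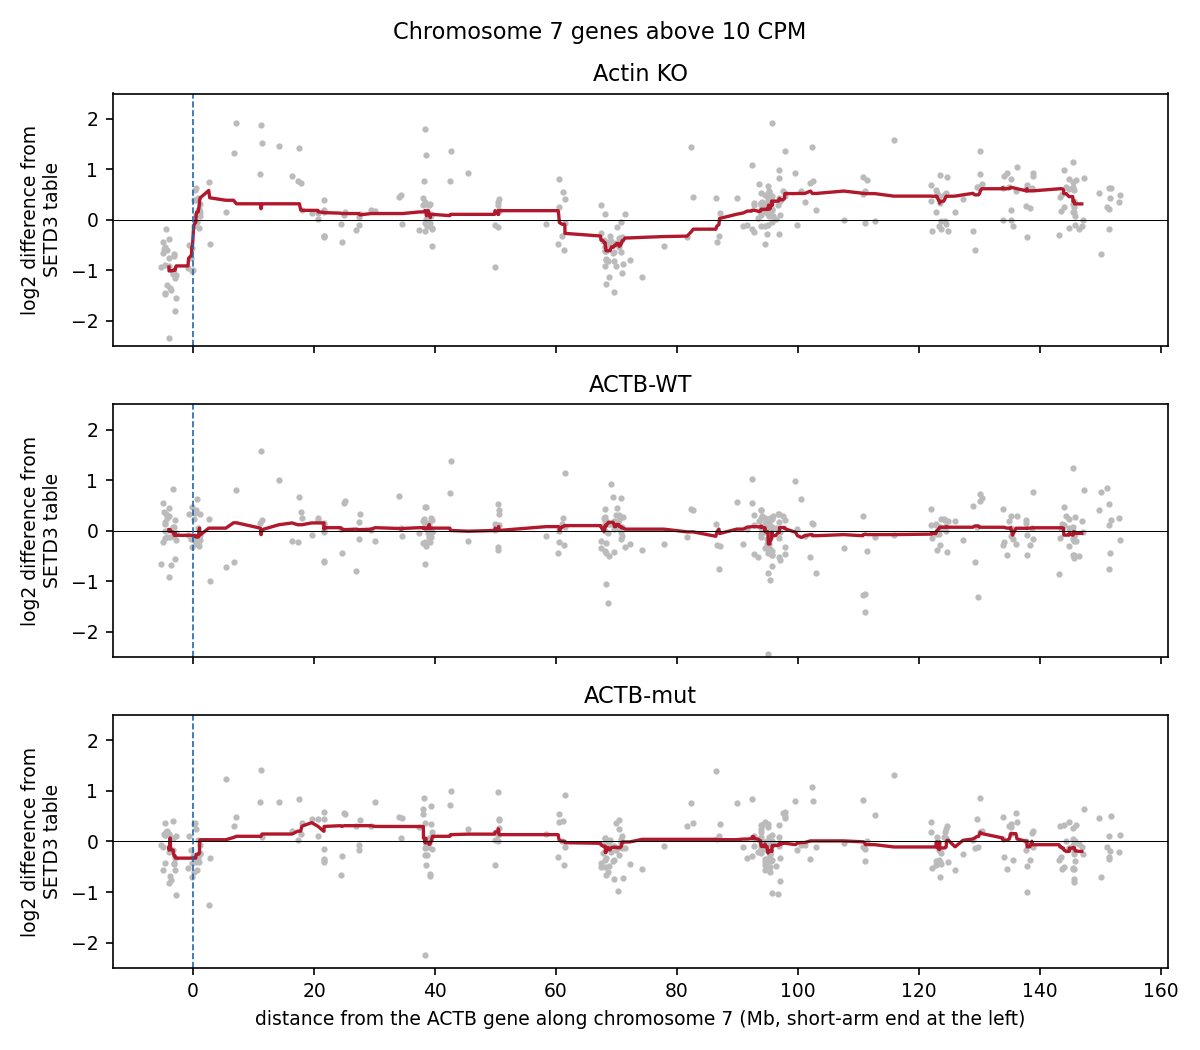
Log2 difference of each chromosome 7 gene above 10 CPM from the ACTB-intact mean, in Actin KO, ACTB-WT and ACTB-mut from top to bottom, against distance from ACTB in Mb; grey points are genes, red lines the running median of 25 genes and the dashed line marks ACTB. In Actin KO the genes left of ACTB lie below 0 with a median of -0.94, while ACTB-WT and ACTB-mut lie at -0.02 and -0.17 there.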

How the data were processed

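Poly(A)-selected RNA was sequenced from 18 HCT-116 libraries in 6 groups of 3. The deposited tables held expected counts per gene from RSEM 1.2.28 with Bowtie2 after trimming with Trim Galore 0.4.5 and cutadapt 1.15 on GRCh38, per the submitters' processing notes. Strand setting and annotation release are not given in the sources used here, so overlapping and antisense genes cannot be told apart. Expected counts were rounded to whole numbers. Each table had 60683 gene rows, of which 33788 were at 0 in all libraries, and coordinates came from GENCODE, which matched 58496 of them. All columns matched a sample, and 33 symbols were shared by rows.

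Both tables were fitted together in edgeR 4.0.16 under R 4.3.3 with TMM scaling, filterByExpr (15580 genes kept), 1 coefficient a group and robust quasi-likelihood F tests, two-sided. The contrast was the mean of Actin KO, ACTB-WT and ACTB-mut minus the mean of SETD3 CT, KO1 and KO2. A call is a Benjamini-Hochberg adjusted p below 0.05 over all tested genes. The SE is the log2 difference divided by the square root of F. A gene is separated where no library of one table lies within the range of the other. CPM are scaled by TMM. The fit was tested on simulated data. The precision stated with the library totals is the variation between replicates beyond counting error.

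Named genes were ACTB, ACTG1, SETD3, SMARCA4, the separated genes and the separated or called members of 40 lists, with the highest gene of a list lacking any; others are said to be named after their values were seen. A few of these genes, and 1 list, are not reported here. The comparison, the members and the lists were chosen with earlier results of these data known. The 2 add-back groups went by their labels. Alternatives were DESeq2 1.42.0, other scalings and filters, GC offsets, a replicate block, limma 3.58.1 fits on group means or with the group as a random effect, and leaving out each library, each group, both doubtful or both outlying libraries.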

Additional observations from a re-analysis of the deposited data

How the results depend on the processing

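Against 83 genes called higher with ACTB depleted, 155 were called by DESeq2, 160 without a filter on low counts, 132 with GC offsets, 55 with the replicate block, 30 with the group as a random effect, 1 on group means and 6 for Actin KO against SETD3 CT alone. Leaving out Actin KO gave 49, ACTB-mut 32 and KO1 51, and leaving out 1 library gave 52 to 101, the lowest without ACTB-mut replicate 3 and 54 each without Actin KO replicate 2 or ACTB-WT replicate 2. Against 101 called lower, DESeq2 called 230, total-count scaling 159 (with 68 higher), no filter 219, the random effect 32, group means 5 and Actin KO against SETD3 CT alone 5. Without ACTB-mut 45 were called lower, without KO1 60, and without 1 library 76 to 114.

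Of separated genes, 9 were higher. Total-count scaling gave 5, group means 1, and leaving out Actin KO 18, ACTB-WT 27, SETD3 CT 19, KO1 14 or KO2 14; leaving out 1 library gave 7 to 12. Of the 9 lower, group means gave 5 and Actin KO against SETD3 CT alone 5, and leaving out Actin KO gave 31, ACTB-WT 19, SETD3 CT 43, KO2 14, and the 2 libraries that stand apart (chosen after seeing the data) 16. Leaving out 1 library gave 9 to 15, the highest without SETD3 CT replicate 1. Fewer libraries must all lie apart when a group is left out, which raises such counts by construction.

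Of the 18 separated and called genes, 6 stayed called on group means, 4 for Actin KO against SETD3 CT alone (ACTB, S100A4, ACTG1 and BST2) and 12 to 18 in the other settings. ACTG1 and S100A4 stayed called in all 37. ACTB did too, but its low RNA was known when the split was drawn, so its call carries no support. The sign turned for Actin KO against SETD3 CT alone in MKI67 (0.12), GDF15 (-0.07) and SETD3 (-0.37), for SLC2A1 without ACTB-WT (-0.03), for LY6D without ACTB-mut (0.37) or KO2 (0.04), and for SMARCA4 without ACTB-mut (0.04), KO1 (0.01) or SETD3 CT replicate 1 (0.01); over all libraries left out singly SMARCA4 ran from -0.13 to 0.01. The cause was not tested.

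Equal replicate numbers did not pair the samples: deviations of same-numbered libraries correlated at -0.41 to 0.21 over 45 pairs, median -0.03, against -0.38 to 0.41 over 90 other pairs, median 0.02. With the replicate block 55 genes were called higher and 82 lower, 136 of the 184 calls stayed, and 7 and 9 genes were separated, RACK1 and UBALD1 being lost. Spread between replicates limits rare transcripts most: beyond counting error it was 89.1% at 1 to 10 CPM.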
